A study of Mus musculus with 27 samples.

Results

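The equal mixture held 100 starburst amacrine cells and 100 cone photoreceptors of the mouse retina, sorted into 1 tube, and was measured on 3 arrays. Its level of each gene was set against the half-way value, the mean of 2 group means: 3 arrays of 200 starburst cells and 3 arrays of 200 cones. These 9 arrays were chosen by their labels from the 27 of the series, and none by a measured value. All values below are linear levels, 2 to the power of the deposited log2 value, and a deviation is the log2 of the mixture's mean level over the half-way value. The design of the series asks whether the level of a gene follows the amount of its RNA put into the amplification.

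The equal mixture came from ChAT-Cre × Rosa26-LSL-RFP and Chrnb4-GFP retinas. The pure starburst cells were red cells of mice from 129S6-Chat_tm1(cre)Lowl/J crossed to Rosa26-LSL-RFP, and the pure cones were green cells of the line Tg(Chrnb4-EGFP)1Gsat. In the starburst line a Cre recombinase at the Chat gene turns on a red protein from the Rosa26 locus, and in the cone line a transgene with Chrnb4 sequences makes EGFP. All groups were adult retina, with a mixed background of C57BL/6J and an FVB/N-Swiss Webster hybrid. Mice from the resource centre carried a recessive photoreceptor degeneration mutation, were crossed to C57BL/6J, and were used in the F2 generation. For each sort 6 retinas of the starburst line and 2 of the cone line were pooled, and 3 sorts from different mice gave replicates 1, 2 and 3. Each array therefore stands for pooled animals.

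Cones detect light through a cascade of opsin, transducin, phosphodiesterase and a cyclic nucleotide-gated channel, and pass the signal on at ribbon synapses. Starburst amacrine cells are the cholinergic interneurons of the retina, release both acetylcholine and GABA, and are known for their part in direction selectivity. In a tube with equal numbers of both cells, a transcript found only in one of them is diluted by the other. A measurement that is linear in RNA then puts its level midway between the pure groups, provided that both cells give the same amount of RNA. In bulk samples such as these, fewer cells of a type and less RNA per cell cannot be told apart.

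The sums of the defining markers fitted the labels, with 1 array standing apart. The levels of 7 cone markers summed to 7291, 6389 and 7442 on the equal mixture arrays, to 160, 280 and 86.2 on the pure starburst arrays, and to 12620, 12240 and 5104 on the pure cone arrays. The levels of 7 starburst markers summed to 1660, 1934 and 2008 in the equal mixture, to 2533, 2756 and 2535 in pure starburst, and to 59.8, 55.4 and 97.0 in pure cone. The third pure cone array thus had the lowest cone marker sum of its group, below every equal mixture array. It also had the highest sum of the 5 measured rod markers, 3989, beside 2537 and 2515 on the other cone arrays, 1251, 1186 and 1386 in the equal mixture, and 530, 955 and 479 in pure starburst. Sag was the largest term of this sum on all 9 arrays, with 992, 982 and 1150 in the equal mixture. On the pure cone arrays Sag had 2141, 2073 and 1974, so it was not raised on the third. The rise there lay mostly in Gnat1 (276, 310 and 1356), Pde6b (56.1, 75.6 and 362) and Cnga1 (37.7, 24.5 and 259). The third arrays of the mixtures with 50, 75, 150, 157 and 183 cones were also the lowest of their groups in cone markers, whereas that of the equal mixture was the highest of its group. Chat, the acetylcholine-synthesising enzyme whose locus drives Cre, was low everywhere, with 12.8, 10.8 and 13.0 in the equal mixture, 14.4, 14.0 and 24.0 in pure starburst, and 9.28, 7.30 and 8.29 in pure cone. Of the other starburst markers Megf10 and Slc5a7 were low too. Megf10 had 9.73, 6.41 and 6.23 in pure starburst and 5.95, 5.30 and 6.44 in pure cone. Slc5a7 had 11.8, 8.28 and 21.4 in pure starburst and 7.83, 8.28 and 5.69 in pure cone. The starburst sums thus rest on Slc18a3, Isl1, Slc10a4 and Sox2. Chrnb4, the nicotinic receptor subunit gene of the cone transgene, had 17.5, 17.0 and 11.6 in the equal mixture, 6.76, 4.95 and 8.34 in pure starburst, and 26.1, 18.6 and 9.55 in pure cone. For the cell-type genes and lists, values that the third pure cone array moves by a sign or by over 1.5 times are given below without it as well. For Chrnb4 the deviation was 0.31 with that array and 0.08 without it.

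Opn1mw, the medium-wavelength cone opsin, lay above half-way on each mixture array. Its level was 1556, 1457 and 1540 in the equal mixture, 15.2, 65.8 and 15.4 in pure starburst, and 2243, 2592 and 1162 in pure cone. The mixture arrays lay close together, above the third cone array and below the other 2. Against a half-way value of 1016 the deviation was 0.58 (SE 0.58, 95% interval -0.63 to 1.79), with an adjusted p of 0.883 in limma. Without the third cone array the half-way value was 1225 and the deviation 0.31.

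Slc10a4, a transporter-like protein of cholinergic and monoaminergic synaptic vesicles, stayed in the equal mixture at about the level of pure starburst cells. Its level was 302, 321 and 346 in the equal mixture, 273, 276 and 364 in pure starburst, and 7.86, 8.33 and 6.60 in pure cone. All 3 mixture arrays lay within the range of the starburst arrays and far above the cone arrays. The mixture reached 2.07 times the half-way value of 155.9, a deviation of 1.05 (SE 0.19, 95% interval 0.65 to 1.45), with an adjusted p of 0.0538, just short of the threshold of 0.05. With replicate number as a block in the fit, that p was 0.0316, and without the third cone array it was 0.0462, so that the gene was called in both. It was not called with deviations taken by replicate number (0.573), with the spread from the 9 arrays alone (0.283) or with the mixture's own position in place of 50% (0.26), where the deviation was 0.77. The difference of the mixture from pure starburst was 0.10 on the log2 scale (adjusted p = 0.915).

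Pcp4, a small calmodulin-binding protein, showed the same order. Its level was 2400, 2125 and 2252 in the equal mixture, 1921, 1755 and 1998 in pure starburst, and 119, 101 and 850.5 in pure cone. Every mixture array exceeded every starburst array, by a log2 difference of means of 0.26 that did not pass the test (adjusted p = 0.897). The mixture reached 2.01 times the half-way value of 1124, a deviation of 1.01 (SE 0.41, 95% interval 0.15 to 1.87, adjusted p = 0.59). The third cone array alone was high for Pcp4. Without it the deviation was 1.17 with an adjusted p of 0.000102, and the gene was called above half-way.

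**Figure D1:**
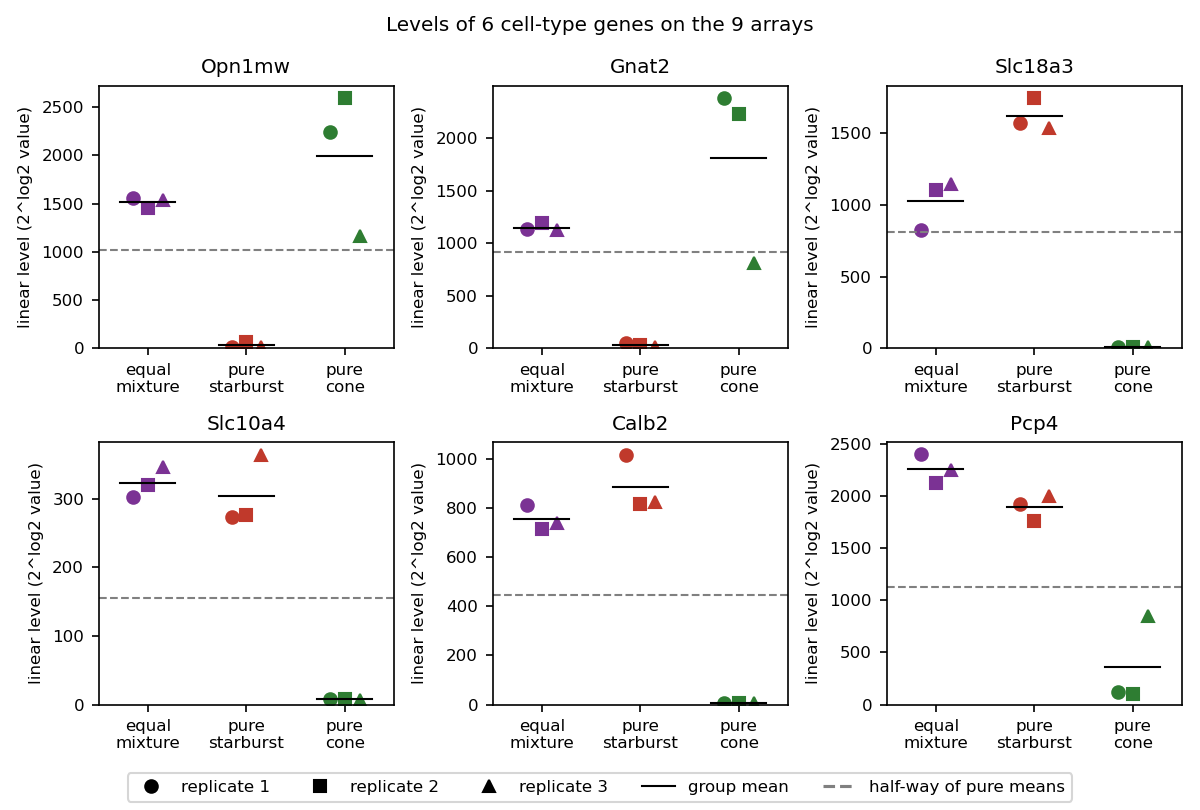
Linear levels (2 to the power of the deposited log2 value) of 6 cell-type genes on each array of the equal mixture, pure starburst and pure cone groups; marker shapes give the replicate number, black bars the group means and dashed lines the half-way value. Slc10a4, Calb2 and Pcp4 of the equal mixture lie near the pure starburst arrays and above the dashed line, and the third pure cone array is the lowest of its group for Opn1mw and Gnat2 and the highest for Pcp4.

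The promoters of the 3 markers are shown with that of the cone transducin gene Gnat2, since the 4 genes cover both cell types and both the midway and the high pattern. Each is the 250 bases upstream of the start in RefSeq (build GRCm38.p6, plus strand in all 4), 5′ to 3′. Capitals mark TAATCC or its reverse complement GGATTA, the core letters bound by the photoreceptor homeodomain factors CRX and OTX2. They lie at chrX:74127216-74127465 for Opn1mw, chr3:108092816-108093065 for Gnat2, chr5:73006654-73006903 for Slc10a4 and chr16:96467356-96467605 for Pcp4.
Opn1mw: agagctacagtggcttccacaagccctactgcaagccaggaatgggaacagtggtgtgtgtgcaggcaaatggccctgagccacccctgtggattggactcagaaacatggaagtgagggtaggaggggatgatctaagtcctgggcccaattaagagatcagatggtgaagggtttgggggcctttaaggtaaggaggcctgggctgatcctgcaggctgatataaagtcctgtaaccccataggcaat
Gnat2: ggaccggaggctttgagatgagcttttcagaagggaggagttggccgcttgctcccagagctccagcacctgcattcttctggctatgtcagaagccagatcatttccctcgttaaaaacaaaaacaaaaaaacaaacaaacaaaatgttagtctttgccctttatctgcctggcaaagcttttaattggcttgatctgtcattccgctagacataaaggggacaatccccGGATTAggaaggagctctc
Slc10a4: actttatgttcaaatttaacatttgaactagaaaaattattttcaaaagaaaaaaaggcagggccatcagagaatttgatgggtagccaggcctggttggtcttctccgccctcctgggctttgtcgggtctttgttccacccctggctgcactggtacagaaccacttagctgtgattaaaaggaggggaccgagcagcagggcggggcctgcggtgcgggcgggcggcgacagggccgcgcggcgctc
Pcp4: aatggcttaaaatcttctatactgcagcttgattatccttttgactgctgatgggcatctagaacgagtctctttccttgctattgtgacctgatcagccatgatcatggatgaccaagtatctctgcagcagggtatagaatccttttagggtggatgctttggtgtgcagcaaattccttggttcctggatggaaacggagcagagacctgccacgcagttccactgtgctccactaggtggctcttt
Only the Gnat2 window of these 4 held the motif, with 1 match, and the other 3 held none. The window of Rom1, a photoreceptor gene described below, was also searched, held none and is not printed.

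Over all genes the equal mixture lay close to half-way. Where both pure groups have like levels, any mixing share gives about that value, so the closeness says little for such genes. The cell-type classes described below left out 12210 of the tested genes. Of 12441 genes tested, 91.5% lay within 0.5 log2 units of the half-way value, and 174 (1.4%) deviated by at least 1, of which 61 were above and 113 below. A positive deviation was found for 5680 genes (45.7%) and a negative one for 6744, the shares to set beside the sign counts of the lists below. The median deviation was -0.02, and the median 95% interval, not adjusted for the number of genes, reached 0.41 to either side. Smaller deviations were not detectable for a typical gene, and a call after adjustment took a larger one. Slc10a4 with 1.05 (SE 0.19) and Cdk14 with 0.79 (SE 0.15) both missed it in limma (adjusted p = 0.0538). limma called 1 gene above half-way (0.00804% of those tested) and 0 below (0%) at an adjusted p under 0.05. At an unadjusted p under 0.05, 415 genes were above (3.34%) and 528 below (4.24%). The 3 mixture arrays did not overlap the 3 half-way values, taken by replicate number, for 561 genes above (4.51%) and 941 below (7.56%). Without the third cone array 6 genes were called: Spaca5, Pcp4 and Slc10a4 above, and Tac1, Olfr1002 and D16Ertd472e below.

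The gene called above half-way was Spaca5, which encodes a lysozyme-like protein of the sperm acrosome. Its level was 9.41, 15.1 and 18.1 in the equal mixture, 5.07, 5.49 and 4.50 in pure starburst, and 5.32, 5.29 and 4.16 in pure cone. All mixture arrays lay above all pure arrays, in a range close to the median of all values on the arrays, which was 7.09. The deviation was 1.51 (SE 0.18, adjusted p = 0.00052), and Spaca5 was also the 1 gene above both pure groups by limma (adjusted p = 0.00108 against starburst and 8.21e-05 against cone). Its mean level was 5.59 in the mixture with 50 cones and 5.71 in that with 150 cones, and its deviation exceeded theirs by 1.33 (adjusted p = 0.00416). With the spread estimated from the 9 arrays alone, the adjusted p was 0.129, and with deviations paired by replicate number it was 0.596, and the call was lost in both.

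Of the next genes above half-way by p, none passed. After Slc10a4 came Cdk14, a cyclin-dependent kinase, with 14.8, 12.5 and 13.4 in the equal mixture, 9.51, 11.1 and 10.4 in pure starburst, and 5.28, 5.55 and 5.38 in pure cone. Its deviation was 0.79 (adjusted p = 0.0538), and its mixture arrays lay above all 6 pure arrays. Spout1 had 41.2, 42.3 and 41.2 in the equal mixture, 13.7, 26.5 and 25.1 in pure starburst, and 18.04, 18.5 and 19.9 in pure cone. Rnu3a, a U3 small nucleolar RNA, had 11.8, 13.0 and 6.66 in the equal mixture, 3.75, 8.75 and 4.24 in pure starburst, and 4.25, 4.26 and 4.60 in pure cone. These 2 and the other 5 of the first 10, Ubash3b, Ywhae, Mslnl, Prpmp5 and Ptbp3, had deviations between 0.54 and 1.18 and adjusted p between 0.12 and 0.2.

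Below half-way, Tac1 showed the largest deviation of all tested genes. Tac1, the precursor of the neuropeptide substance P, had 6.46, 5.28 and 5.03 in the equal mixture, 18.1, 15.2 and 14.4 in pure starburst, and 207, 254 and 55.0 in pure cone. Every mixture array lay below every array of both pure groups, although the cone arrays were high. The mixture was at 5.95% of the half-way value of 93.9, a deviation of -4.07 (SE 0.76, adjusted p = 0.0538), and -4.46 without the third cone array (adjusted p = 0.0462). In the other mixtures its mean level was 12.2 with 50 cones, 45.7 with 75, 55.1 with 150, 151 with 157 and 28.6 with 183 cones, so that it was higher with more cones except in the last.

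Most other genes below half-way were low in level. Pdlim3, a cytoskeletal protein of the actinin-associated LIM family, had 4.62, 4.84 and 4.72 in the equal mixture, 12.37, 10.5 and 8.40 in pure starburst, and 6.85, 4.70 and 6.82 in pure cone (deviation -0.81, adjusted p = 0.0538). Cdkn2c, an inhibitor of cyclin D-dependent kinases, had 6.05, 5.28 and 5.79 in the equal mixture, 4.26, 8.66 and 5.28 in pure starburst, and 21.4, 13.2 and 61.5 in pure cone. The cone arrays were high for Cdkn2c, and the mixture arrays sat within the starburst range. Its deviation was -1.74 with the third cone array and -1.03 without it, and was not called in either. The odorant receptor gene Olfr1002 followed that pattern, with 3.30, 3.12 and 3.08 in the equal mixture, 3.41, 7.55 and 2.95 in pure starburst, and 23.4, 9.27 and 7.67 in pure cone (deviation -1.51, adjusted p = 0.0538). Fgl1, a secreted fibrinogen-like protein, showed the opposite order, since its mixture was at the cone level: 11.5, 16.0 and 10.4 in the equal mixture, 54.4, 56.2 and 65.7 in pure starburst, and 10.7, 11.5 and 11.3 in pure cone (deviation -1.47, adjusted p = 0.2). Rom1, a tetraspanin of photoreceptor outer segment discs, was the brightest of the 10 first genes below. Its level was 426, 581 and 533 in the equal mixture, 323, 561 and 272 in pure starburst, and 1444, 1280 and 1593 in pure cone. All 3 cone arrays were far above the rest, and the mixture overlapped pure starburst (deviation -0.83, SE 0.20, adjusted p = 0.21). The other 4 of these 10, Aifm1, Papolb, Ctnnb1 and Adipor1, had deviations between -1.05 and -0.60 and adjusted p between 0.2 and 0.21.

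A mixture of 2 populations should hold each transcript at a level between theirs, and calls past both ends were rare. By limma 1 gene was above both pure groups (0.00804%), Spaca5, and 0 genes were below both (0%). At an unadjusted p under 0.05 in both contrasts, 65 genes were above both groups and 44 below both, of 12441 tested. Besides Spaca5, the genes farthest above both ends were Sde2, Zfp882, Bdkrb1 and Olfr1406, and none of these was called. Olfr1406 rested on 1 array, with 7.36, 33.8 and 7.82 in the equal mixture, 5.29, 4.53 and 4.83 in pure starburst, and 5.15, 5.92 and 4.86 in pure cone. The genes farthest below both ends were Acnat1, Tac1, Stxbp4, Rnd2 and Olfr214, also without a call.

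Gene classes for the 2 cell types were taken from arrays outside the comparison. limma called 88 cone-high genes (0.707% of those tested) and 143 starburst-high genes (1.15%) between the 3 cone-rich and 2 starburst-rich other mixtures, where the log2 difference had to reach 1. Several markers described above missed these classes, among them Opn1mw (adjusted p = 0.0805), Gnat2, Opn1sw, Arr3, Slc10a4, Pcp4, Calb2 and Sox2. Genes that stayed high through the mixtures, such as Slc10a4 (log2 difference -0.40) and Pcp4 (-0.17), therefore do not enter the class medians and positions. The cone-high genes lay mostly below half-way in the equal mixture: 69 of 88 had a negative deviation, with a median of -0.29. The starburst-high genes lay mostly above it: 94 of 143 had a positive deviation, with a median of 0.15, beside a median of -0.02 over all tested genes. The 3 mixture arrays did not overlap the half-way values below for 17 cone-high genes (19.3%, against 7.56% of all genes) and above for 26 starburst-high genes (18.2%, against 4.51% of all genes). Without the third cone array, 82 of 88 cone-high genes had a negative deviation with a median of -0.42, and 94 of 143 starburst-high genes a positive one with a median of 0.18. Taken by replicate number, the cone-high median was -0.29, -0.51 and 0.08, so that the third set of arrays had the other sign. The starburst-high median was 0.13, 0.20 and 0.16 and had the same sign in all 3. The difference between the classes was not tested. The mixture mean was at or past the pure starburst mean for 6 of 88 cone-high and 9 of 143 starburst-high genes. It was at or past the pure cone mean for 2 and 6 of them.

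**Figure D2:**
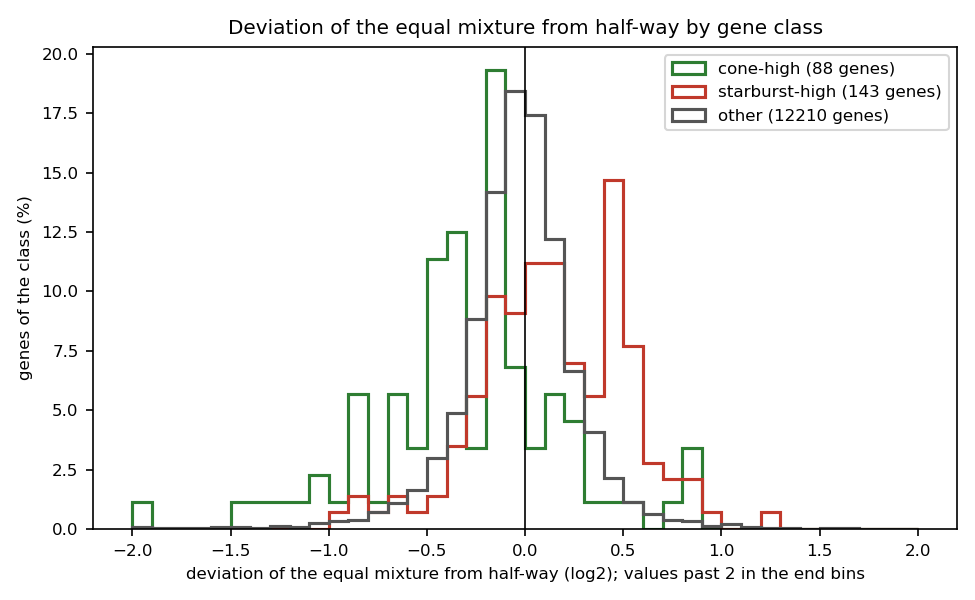
Share of genes (percent of each class) by their deviation of the equal mixture from half-way in log2 units, for 88 cone-high, 143 starburst-high and 12210 other genes; values past 2 in either direction are drawn in the end bins. The cone-high outline sits to the left of 0 (median -0.29) and the starburst-high outline to the right (median 0.15), with wide overlap.

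The same genes place each array on a line from 0% at the pure starburst mean to 100% at the pure cone mean. By cone-high genes the equal mixture arrays lay at 41.4%, 30.8% and 30.2% (34.1% ± 6.3, SD, n = 3). By starburst-high genes they lay at 46.1%, 43.6% and 40.8% (43.5% ± 2.7, SD, n = 3). All 3 arrays were below the stated 50% in both classes, and the mean over both classes was 38.8% ± 4.4 (SD, n = 3). An exact two-sided sign-flip test cannot go below p = 0.25 with 3 arrays, so it gives no call on the distance from 50% either way. Without the third cone array the positions were 34.1%, 26.7% and 25% by cone-high genes and 46.0%, 43.7% and 39.7% by starburst-high genes. The other mixtures, in order of cone share, lay at 15.9% (50 cones), 7.2% (75), 61.1% (150), 62.1% (157) and 83.7% (183), each below its stated share of 25%, 37.5%, 75%, 78.5% and 91.5%. The 2 classes were chosen on these mixtures, so their positions are given as a description.

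**Figure D3:**
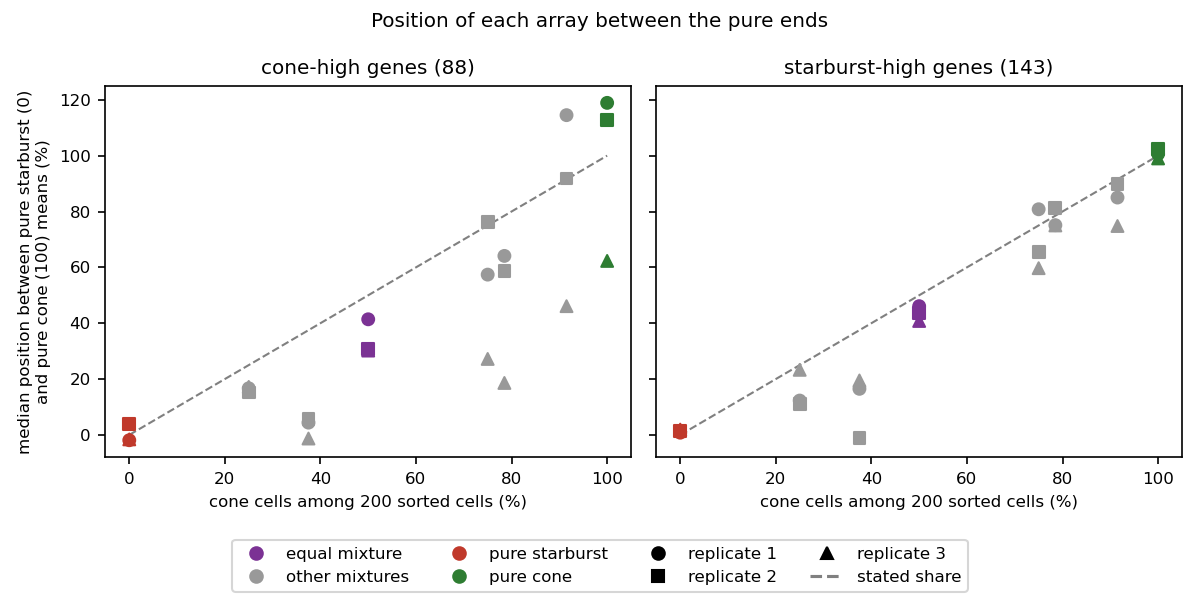
Median position of each array between the pure starburst mean (0%) and the pure cone mean (100%) over cone-high genes (left) and starburst-high genes (right), against the percent of cones among the 200 sorted cells; the dashed line marks the stated share and marker shapes the replicate number. The equal mixture arrays lie below the line at 30.2% to 41.4% by cone-high genes and 40.8% to 46.1% by starburst-high genes, and the third pure cone array lies far below the other 2 by cone-high genes.

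The deviation also differed with the level of the gene in the other mixtures. Of the genes that limma called between both pure groups with a log2 difference of 2 or more, 101 had their higher level in cones and 175 in starburst cells, and 96 and 167 of these had a mixture mean between the ends. They were split by their mean level in the 5 other mixtures. For cone genes the median deviation was -0.36 under a level of 50, -0.25 between 50 and 200, and 0.12 at 200 and over, with 19 genes in the last bin. For starburst genes it was 0.10, 0.23 and 0.45 in the same bins. In this split, bright genes of both cell types lay higher relative to half-way than dim ones. Among the brightest starburst genes 28 of 30 had a positive deviation, and their median position was 27.5%. Without the third cone array the medians were -0.57, -0.43 and -0.06 for cone genes and 0.08, 0.24 and 0.47 for starburst genes, so that the positive median of the brightest cone genes rested on that array. Since these genes were called on the pure arrays that also set the half-way value, the numbers are a description. A gene that stays high through the mixtures, as Slc10a4 did, also falls in a higher bin. The rise with level can therefore come in part from the split itself, which was not tested.

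Genes of the cone list lay on both sides of half-way, and the third pure cone array decided on which side most of them lay. Of 16 tested members 11 had a positive deviation, with a median of 0.16, and without that array 7 had one, with a median of -0.06. None was called. Pde6h, the inhibitory subunit of cone phosphodiesterase, had 2196, 1570 and 1712 in the equal mixture, 44.8, 46.8 and 27.1 in pure starburst, and 2867, 2519 and 1331 in pure cone (deviation 0.68, SE 0.59, adjusted p = 0.849, and 0.42 without the third cone array). Gnat2, the cone transducin alpha subunit, had 1131, 1194 and 1122 in the equal mixture, 50.2, 28.1 and 9.47 in pure starburst, and 2379, 2231 and 817 in pure cone. The third cone array lay below the mixture for Gnat2, and the deviation was 0.32 with it and -0.02 without it. Opn1sw, the short-wavelength opsin, and Arr3, the cone arrestin, deviated by 0.40 and 0.38, and by 0.08 and 0.01 without that array. Gnat2, Opn1sw and Arr3 are given as 3 of the 7 cone markers. Members below half-way included Grk1, Rxrg and Cngb3. Grk1, the kinase that phosphorylates light-activated opsin, had 14.4, 8.27 and 9.32 in the equal mixture, 7.26, 7.26 and 9.25 in pure starburst, and 27.5, 15.03 and 32.8 in pure cone. Its deviation of -0.63 (SE 0.29, adjusted p = 0.637) was the one of the list with an unadjusted p under 0.05, and it was -0.45 without the third cone array. Rxrg, a retinoid receptor, deviated by -0.32 and Cngb3, a subunit of the cone channel, by -0.20, and by -0.66 and -0.61 without that array. Grk1, Rxrg and Cngb3 were chosen after their values were seen. For Opn1mw, Pde6h, Gnat2, Arr3 and Opn1sw, standard errors of 0.58 (Opn1mw) to 0.94 (Opn1sw) leave deviations of about a log2 unit undetectable. Over the whole list the standard errors ran from 0.12 for Kcnv2 to 1.015 for Mogat1.

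Rod genes lay below half-way. All 13 tested members of the rod list had a negative deviation, with a median of -0.48, and 6 of them (46.2%) had mixture arrays that did not overlap the half-way values, against 7.56% of all genes. None was called. Gnat1, the rod transducin alpha subunit, had 192, 152 and 154 in the equal mixture, 171, 360 and 191 in pure starburst, and 276, 310 and 1356 in pure cone. The third cone array was far above the others for Gnat1, and the deviation was -1.42 with it and -0.69 without it. Pde6b, the rod phosphodiesterase beta subunit, had 17.6, 10.7 and 35.9 in the equal mixture, 33.6, 49.6 and 29.1 in pure starburst, and 56.1, 75.6 and 362 in pure cone. Its deviation was -2.24, and -1.27 without that array. Rom1, on the list too, had a deviation of -0.83 with it and -0.77 without it. Over the list, 11 of 13 genes had a negative deviation without it, with a median of -0.22. The part of rod RNA in the third cone array in these values was not tested. Gnat1 and Pde6b were chosen after their values were seen.

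Genes shared by rods and cones, and those of the ribbon synapse, lay mostly below half-way. Of 17 tested pan-photoreceptor genes 16 had a negative deviation, with a median of -0.19, and of -0.38 without the third cone array. The exception was Guca1a, a guanylate cyclase activator, with 2296, 2243 and 2225 in the equal mixture, 487, 840 and 414 in pure starburst, and 3013, 2924 and 2769 in pure cone (deviation 0.37, adjusted p = 0.848). Its mixture arrays lay close together in a gap between both pure groups. Rdh12, a retinal reductase of photoreceptors, chosen after its values were seen, had 19.4, 16.9 and 18.5 in the equal mixture, 15.7, 17.9 and 9.25 in pure starburst, and 63.8, 44.1 and 46.7 in pure cone (deviation -0.85, adjusted p = 0.387). Of 11 ribbon synapse genes 9 had a negative deviation, with a median of -0.20, and of -0.31 without that array. Cplx4, a complexin of photoreceptor synapses, had 190, 193 and 171 in the equal mixture, 47.1, 48.6 and 27.6 in pure starburst, and 485, 401 and 371 in pure cone (deviation -0.32, adjusted p = 0.85). No member of either list was called.

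Starburst and amacrine genes lay more often above half-way. Of 14 tested starburst and cholinergic genes 9 had a positive deviation (64.3%, against 45.7% of all genes), with a median of 0.25. For 5 of them (35.7%) the mixture arrays lay above the half-way values without overlap, against 4.51% of all genes. Slc18a3, the vesicular acetylcholine transporter, had 827, 1102 and 1147 in the equal mixture, 1569, 1742 and 1539 in pure starburst, and 11.8, 8.59 and 7.001 in pure cone. Its mixture arrays spread from the half-way value of 813 upwards, with a deviation of 0.34 (SE 0.23, adjusted p = 0.783). Sox2, a transcription factor kept in adult starburst cells, had 124, 114 and 143 in the equal mixture, 138, 144 and 152 in pure starburst, and 5.43, 4.95 and 6.42 in pure cone (deviation 0.76, SE 0.20, adjusted p = 0.266). It stood closer to pure starburst than to half-way, as Slc10a4 and Pcp4 did. Sox2 was chosen after its values were seen.

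Among 13 amacrine and GABAergic genes 8 had a positive deviation, with a median of 0.15, and 7 (53.8%) did not overlap above, against 4.51% of all genes. Calb2, the calcium buffer calretinin, had 813, 713 and 737 in the equal mixture, 1016, 814 and 822 in pure starburst, and 8.04, 7.11 and 6.58 in pure cone. Its mixture arrays came just under the starburst arrays, with a deviation of 0.76 (SE 0.19, adjusted p = 0.237). Calb1, the calcium buffer calbindin, deviated by 0.52 and Slc32a1, the vesicular GABA transporter, by 0.27. Meis2, a homeobox factor, chosen after its values were seen, went the other way, with 4.03, 4.52 and 3.91 in the equal mixture, 4.70, 4.86 and 3.74 in pure starburst, and 16.9, 11.97 and 6.33 in pure cone (deviation -0.96, adjusted p = 0.341). No amacrine gene was called.

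**Figure D4:**
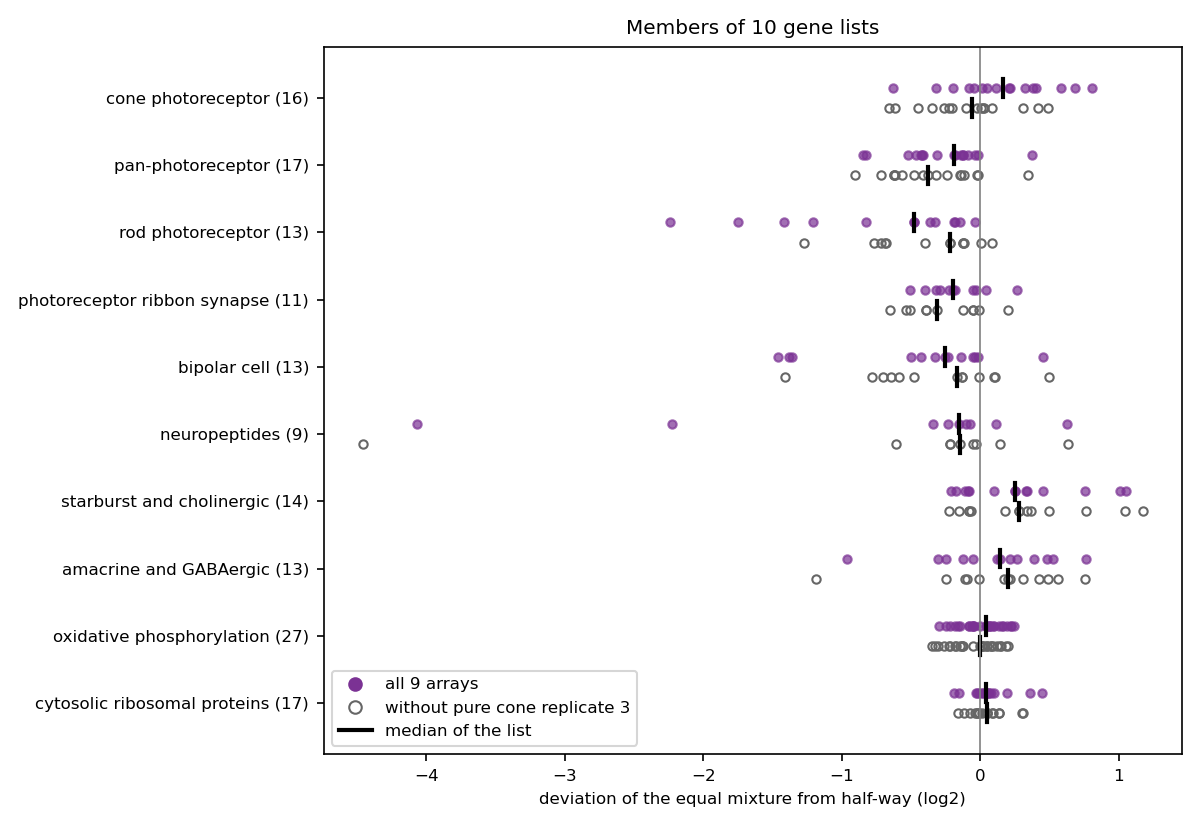
Deviation of the equal mixture from half-way (log2 units) of each tested member of 10 gene lists, with the number of genes in brackets; filled circles use all 9 arrays, open circles leave out pure cone replicate 3, and black bars mark the medians. Rod genes lie left of 0 with all arrays, and their median moves from -0.48 to -0.22 without that array, cone genes move from a median of 0.16 to -0.06, and the isolated point at -4.07 is Tac1.

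Neuropeptide genes spread widely. Of 9 tested 7 had a negative deviation, with a median of -0.15. Cartpt, the precursor of the CART peptides, had 15.0, 8.31 and 11.99 in the equal mixture, 15.5, 14.4 and 13.8 in pure starburst, and 26.1, 16.5 and 244 in pure cone. Its deviation of -2.23 rested on the third cone array and was -0.61 without it. Npy, neuropeptide Y, had 651, 514 and 456 in the equal mixture, 610, 716 and 659 in pure starburst, and 36.1, 37.0 and 42.0 in pure cone (deviation 0.63, SE 0.23, adjusted p = 0.518). Its mixture arrays overlapped the starburst arrays and stayed far above the cone arrays. Cartpt was chosen after its values were seen.

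Genes of other retinal cells differed in direction between lists. Of 13 bipolar cell genes 12 had a negative deviation, with a median of -0.25, and of -0.17 without the third cone array, where 10 were negative. Cabp5, a calcium-binding protein of bipolar cells chosen after its values were seen, had 8.95, 10.8 and 15.0 in the equal mixture, 6.60, 13.6 and 6.74 in pure starburst, and 68.4, 37.1 and 49.1 in pure cone (deviation -1.38, adjusted p = 0.256). The 5 measured bipolar markers summed to 44.0, 37.5 and 41.6 in the equal mixture, 34.3, 82.4 and 36.5 in pure starburst, and 108, 77.6 and 163 in pure cone. Of 11 Muller glia genes 9 had a negative deviation (median -0.25). Of 7 ganglion cell genes 5 had one (median -0.33), but without the third cone array 4 of the 7 were positive (median 0.03). Of 5 vascular, microglia and blood genes 4 were negative (median -0.46). All 4 horizontal cell genes had a positive deviation (median 0.37), among them Calb1, which is also on the amacrine list. Septin4 and Calb1, the 2 of highest level, had means of 305.7 and 121.9 in pure starburst and 107.3 and 6.74 in pure cone. Their deviations are thus not apart from those of starburst genes. None of these genes was called.

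Most lists not tied to 1 cell type, and the receptor lists, had medians near half-way, with members on both sides. The median deviation was 0.04 for 17 cytosolic ribosomal protein genes, 0.04 for 27 oxidative phosphorylation genes, 0.00 for 15 glycolysis genes, 0.03 for 18 immediate early genes and 0.04 for 14 synaptic vesicle genes. Without the third cone array 11 of 15 glycolysis genes were negative (median -0.10), and the oxidative phosphorylation median was -0.005. Rab3c, a vesicle GTPase chosen after its values were seen, had 19.7, 7.45 and 14.02 in the equal mixture, 7.87, 8.68 and 6.26 in pure starburst, and 4.49, 5.99 and 6.70 in pure cone. Its deviation of 1.04 (SE 0.33, adjusted p = 0.387) was the highest of the vesicle list. The median was 0.07 for 5 GABA-A and glycine receptor genes, and 0.06 for 9 glutamate receptor genes, or -0.02 without the third cone array. Some receptor genes were starburst-high, such as Gabrb1 (mean 41.2 in pure starburst, 6.25 in pure cone) and Grm2 (77.6 and 17.8). Others, such as Gabra3 (4.63 and 4.58), had like levels in both. Rps14, a protein of the small ribosomal subunit, had 3105, 2636 and 2709 in the equal mixture, 2982, 2728 and 2888 in pure starburst, and 2616, 2563 and 2523 in pure cone (deviation 0.05, 95% interval -0.14 to 0.25). Hk1, the hexokinase of neurons, had 1598, 1588 and 1648 in the equal mixture, 1316, 1328 and 1654 in pure starburst, and 1406, 1459 and 1913 in pure cone (deviation 0.09, 95% interval -0.17 to 0.36, and 0.17 without the third cone array). Both pure groups overlap or nearly meet for these 2 genes, so any mixing share gives nearly the same value. Hspa1a, a heat shock chaperone chosen after its values were seen, had 54.2, 46.1 and 33.2 in the equal mixture, 39.4, 44.9 and 94.3 in pure starburst, and 152, 111 and 142 in pure cone (deviation -1.13, adjusted p = 0.264). The 12 heat shock and stress genes had a median of -0.01, and of -0.08 without the third cone array, where 9 were negative. The median was -0.19 for the 2 sex-linked genes tested, and -0.28 without the third cone array. It was -0.002 for the 17 cilium genes and -0.06 for the 11 housekeeping genes, and -0.019 and -0.09 without that array. The activity gene Arc deviated by 0.01. The 33 other list genes given by the naming rule lay between -0.65 (Eif2s3y, a translation factor gene of the Y chromosome) and 0.46 (Isl1, a LIM homeobox factor of starburst and bipolar cells), and none was called.

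The TAATCC motif was more frequent in the cone-high promoters. In the 250 bases upstream, on either strand, 11 of 70 cone-high genes with a RefSeq promoter held it (15.7%), against 1 of 111 starburst-high genes (0.901%). Among the tested genes, from which both classes were drawn, 552 of 9937 held it (5.55%). Among the promoters of all genes 1725 of 27025 did (6.38%). A match describes the letters alone, and these shares were not tested.

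The same markers can be followed through the titration, where every mixture shares the pure arrays that set its expected level. Slc10a4 had a mean level of 284 with 50 cones, 311 with 75, 323 with 100, 285 with 150, 238 with 157 and 169 with 183, beside 304 in pure starburst and 7.60 in pure cone. Even with 183 cones its level was above the middle of the pure groups. Against the value interpolated at the stated share, Slc10a4 was called in the mixtures with 150 (deviation 1.80, adjusted p = 4.3e-05), 157 (1.74) and 183 cones (2.37). Pcp4 stayed between 1710 and 2283 in all 6 mixtures, and was called in limma with 183 cones (deviation 1.81, adjusted p = 0.0389). Calb2 was called with 150 (1.52), 157 (1.225) and 183 cones (2.29), and Slc18a3 with 157 (1.34) and 183 (2.33). Opn1mw, Npy, Isl1 and Calb1 were called in none of the mixtures. Over all genes the count called against the interpolated value was 1 in the equal mixture (0.00804%), 0 (0%) with 50 cones, 60 (0.482%) with 75, 12 (0.0965%) with 150, 39 (0.313%) with 157 and 53 (0.426%) with 183. The difference of the equal mixture's deviation from the mean of those with 50 and 150 cones was called for 2 genes (0.0161%), Spaca5 and Rnu3a. For Slc10a4 that difference was 0.00 (SE 0.17, adjusted p = 0.998). The mean of its neighbours joins unlike deviations, 0.30 with 50 cones (not called) and 1.80 with 150. The 1.05 of the equal mixture lay between these.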

How the data were processed

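Each array held the RNA of 200 sorted cells; 9 of the 27 arrays carry this comparison, and all entered the fit. The deposited values are log2 values that the authors made with RMA in the R package oligo (R 2.11.1), with mm9 as the build, per the submitters' processing notes; which arrays were normalized together is not given in the sources used here. RMA brings the arrays to 1 distribution, so a difference in total RNA between tubes is not visible. Array medians lay between 2.78 and 2.89 and correlations between replicates of the 3 groups between 0.919 and 0.965. Arrays give no counts, and their number limits the precision.

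The annotation gave a single symbol for 19446 of 22347 probe sets; those with several (735) or none (2166) were left out, and for 133 genes with several probe sets the brightest was used. Of 19301 genes, 12441 above the median of all values (log2 2.83) in at least 3 arrays were tested. Values were turned to linear levels. The log2 of the mixture mean over the half-way value was tested, two-sided, with the moderated spread of limma 3.58.1 (R 4.3.3) over all 27 arrays (1 mean per group, 18 residual degrees of freedom, first-order standard error), with Benjamini-Hochberg adjustment over all tested genes and a threshold of 0.05. The 95% intervals come from that fit. The steps were tested on simulated data.

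The design text ties replicate numbers to the 3 sorts, which pairs the titration groups. Deviations of arrays with the same number correlated between -0.02 and 0.06, and the block was left out of the main fit. These correlations do not capture the low cone marker sums shared by the third arrays of pure cone and the 5 other mixtures. The main p-values thus leave the pairing by sort aside, and fits with the block are given as alternatives. Gene lists came from textbook knowledge; the arrays compared, classes and lists were chosen with earlier results of these data known. Named genes were the 10 on each side by p and size whose arrays did not overlap, the 5 farthest past both ends, up to 2 bright uncalled members of each list (some given only as a range), and 7 genes always given; others are said to be chosen later. Promoters are from RefSeq (GRCm38.p6), matched by symbol. Alternatives covered the fit, filter, scale, centring, block and each array left out; level bins and values without the third pure cone array were added after seeing the data.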

Additional observations from a re-analysis of the deposited data

Results flagged for a closer look

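Spaca5 and Rnu3a deviated from half-way in the equal mixture by more than in the mixtures with 50 and 150 cones, by 1.33 and 1.32 on the log2 scale in the limma test of that difference (adjusted p = 0.00416 and 0.036). At an unadjusted p under 0.05 the test of that difference found 774 genes. Both genes were low on all arrays.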

How the results depend on the processing

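Counts near 0 shift by a few genes between settings, and the cause was not tested. Above half-way, 0 genes were called with only the 9 arrays or with deviations by replicate number as a replicate block, 2 with the replicate block in the fit or with no filter, 3 with centred arrays or a filter over the 9 arrays, and 4 with limma on linear values. Below, 3 were called with only the 9 arrays, centred arrays or the filter over the 9 arrays, and 1 with no filter, linear values or the mixture's own position in place of 50%. No filter gave 2 genes above both ends. Leaving out 1 array or replicate number gave 1 to 5 genes above half-way (5 without equal mixture replicate 3), 0 to 5 below (5 without pure starburst replicate 3), 1 to 5 above both ends and 0 to 1 below both. The comparison with neighbouring mixtures gave 0 genes with only the groups compared and 0 to 7 with arrays left out (0 without equal mixture replicate 2, 7 without replicate 3 of each group compared).

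Over the alternatives Spaca5 deviated by 1.21 to 1.77 (adjusted p 5.9e-05 to 0.596), Slc10a4 by 0.77 to 1.20 (0.00276 to 0.573), Pcp4 by 0.80 to 1.22 (0.000102 to 0.825) and Tac1 by -4.46 to -3.68 (0.0427 to 0.795). With arrays left out, some uncalled genes changed sign: Chat (-0.17 to 0.12), Arc (-0.06 to 0.07), Rps14 (-0.02 to 0.10), Eif2s3y (-1.03 to 0.06), Opn1sw (-0.14 to 0.70), Arr3 (-0.20 to 0.78), Gnat2 (-0.02 to 0.59), Rxrg (-0.67 to 0.05) and Cngb3 (-0.65 to 0.10). Cngb3 also turned positive with geometric means (0.12), with deviations by replicate number as a replicate block (0.05) and with the mixture's own position (0.08).

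The position by starburst-high genes was 38.2% with classes taken from the pure groups, and 38.9% to 45.3% with arrays left out. With classes at a log2 difference of 2, which left 2 and 1 genes, positions were 20.1%, 24.6% and 22.4% (mean of both). With only the groups compared, 4, 2, 2 and 7 genes were called in the mixtures with 75, 150, 157 and 183 cones, and the replicate block gave 92 with 75 and 109 with 157. Leaving arrays out gave 0 to 6 genes with 50 cones, 1 to 92 with 75, 5 to 36 with 150, 20 to 141 with 157 and 21 to 70 with 183; each highest count but the first came without pure cone replicate 3. The replicate block changed the call of Slc10a4.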
